A study of Mus musculus with 8 samples.

Results

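The 44 genes described here make up the glutathione, NRF2 and xenobiotic defense system of the cell. They were picked by symbol for their known roles, with earlier results of these data known. All 44 are among the 24346 genes listed in each library. They fall into 10 families, from the transcription factor NRF2 to the enzymes that make, use and recycle glutathione and those that metabolize foreign compounds. Their mRNA levels were compared between 4 libraries of 2D-cultured and 4 libraries of 3D-cultured mouse adipose-derived stem cells (ADSCs). All cells were primary cultures from gonadal fat of wild-type (WT) male BALB/c mice, 12 weeks old. The fat was digested with collagenase, and the cells were grown either as conventional 2D cultures (mice 2, 3, 4 and 5) or embedded in Matrigel as 3D cultures (mice 1, 4, 5 and 7). The methods name several 3D media, most with Wnt3a or R-spondin 1 conditioned medium, and the labels do not say which composition each library had. Culture geometry, matrix and medium cannot be told apart in this comparison.

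Glutathione is the main small thiol of the cell. It is built from glutamate, cysteine and glycine, donates electrons to peroxidases that remove hydrogen peroxide and lipid peroxides, and is returned to its reduced form by glutathione reductase. Glutathione transferases attach it to reactive foreign or endogenous molecules, which are then exported. NRF2, encoded by Nfe2l2, is held back by KEAP1 and, once released, binds the antioxidant response element of many of these genes together with small MAF proteins.

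The sequences of promoters that hold the core of this element are shown first, since NRF2 is known to bind this core. The core TGACNNNGC was searched on both strands in the 250 bases before each annotated start in RefSeq (GRCm38.p6). It occurred in 8 of 44 windows of the 37 member genes that had a window (18.2%), against 3338 of 32851 windows of all genes (10.2%). The 8 members were Nfe2l2, Gclm, Txnrd1, Prdx1, Gsta3, Gstm5, Mgst1 and Sod1. Nfe2l2, Gclm, Gsta3 and Gstm5 were higher in 3D-cultured ADSCs and the other 4 did not pass the test. Of the 37 members with a window, 12 were higher, 9 lower and 16 not called. Hmox1, Gclc, Gsr, Prdx6, Gsta4, Sod3 and Aldh3a1 had no window. A match is a description of these letters and not a site of binding. The windows of the 4 genes that were higher are given 5′ to 3′ on the gene's strand, with the match in capitals, and a match on the opposite strand reads as its reverse complement.
Gsta3 (chr1:21240335-21240584, plus strand): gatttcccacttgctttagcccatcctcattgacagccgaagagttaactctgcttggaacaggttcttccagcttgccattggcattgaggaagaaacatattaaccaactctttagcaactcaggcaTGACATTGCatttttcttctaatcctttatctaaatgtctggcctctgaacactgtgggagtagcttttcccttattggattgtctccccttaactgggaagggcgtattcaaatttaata
Gclm (chr3:122245307-122245556, plus strand): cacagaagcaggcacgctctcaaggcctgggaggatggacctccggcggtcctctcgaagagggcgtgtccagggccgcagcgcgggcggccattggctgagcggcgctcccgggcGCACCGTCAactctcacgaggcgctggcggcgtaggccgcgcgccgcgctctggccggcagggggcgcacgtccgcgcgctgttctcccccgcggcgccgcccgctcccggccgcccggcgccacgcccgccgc
Nfe2l2 (chr2:75704664-75704913, minus strand): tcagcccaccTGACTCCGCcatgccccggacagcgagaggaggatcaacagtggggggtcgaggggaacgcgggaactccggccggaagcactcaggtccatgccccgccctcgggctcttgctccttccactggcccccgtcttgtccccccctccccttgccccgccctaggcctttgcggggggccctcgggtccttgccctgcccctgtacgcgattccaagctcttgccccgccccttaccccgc
Gstm5 (chr3:107895604-107895853, plus strand): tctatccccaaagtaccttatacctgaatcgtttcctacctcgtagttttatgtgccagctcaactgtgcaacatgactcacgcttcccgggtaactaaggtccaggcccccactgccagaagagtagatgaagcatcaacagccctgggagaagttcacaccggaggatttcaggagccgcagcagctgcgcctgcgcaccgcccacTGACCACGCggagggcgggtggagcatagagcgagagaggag
The matches started 121, 134, 240 and 42 bases before the start of Gsta3, Gclm, Nfe2l2 and Gstm5, in this order. The match of Gclm lay on the opposite strand.

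Levels are given as quantile-normalized FPKM, fragments per kilobase of transcript, scaled to the mapped fragments of the library, in the order mice 2, 3, 4 and 5 for 2D culture and mice 1, 4, 5 and 7 for 3D culture. A log2 difference is 3D minus 2D on the scale of log2(FPKM + 1), with its standard error from a limma fit over all 18862 genes above 0 in a library. Adjusted p-values are Benjamini-Hochberg values over these genes, and a gene was called at an adjusted p below 0.05. The addition of 1 FPKM makes differences of low genes smaller. The estimated depth was 16.4–17.3 M fragments per 2D library and 14.5–15.5 M per 3D library. At this depth 39 of the 44 genes averaged 1 FPKM or more, and 36 were above 0 in every library.

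The libraries differed in cell type markers. The 10 mesenchymal stromal markers summed to 1019.7–1585 FPKM in 2D and 152–3180.2 FPKM in 3D culture, with 7 of 10 lower in 3D culture, Ly6a higher, and Pdgfrb and Dcn at 0 in every 3D library. The 3D sums were mostly Ly6a in mice 4, 5 and 7 (1429, 2473 and 3117 FPKM of 1519, 2588 and 3180.2 FPKM), while mouse 1 stood apart with 58.6 of 152 FPKM. The 10 epithelial markers summed to 31.8, 176, 694 and 31.8 FPKM in 2D culture and 2541, 2950.3, 3084 and 2783 FPKM in 3D culture, with 9 of 10 higher in 3D culture and Esrp1 at 0 in every 2D library. In 2D culture, Cd44, Thy1, Ly6a, Pdgfrb, Col1a1 and Col3a1 matched the label of mesenchymal stem cells in every library. The match was uneven for Eng (1.90–49.1 FPKM), Nt5e (0.790–60.6 FPKM), Pdgfra (3.72–38.3 FPKM) and Dcn (3.43–102 FPKM). In 3D culture, Thy1, Eng, Nt5e, Pdgfra, Pdgfrb, Col1a1, Col3a1 and Dcn lay at or near 0, and the fall of Nt5e was not called. Cd44 was not called either, at 82.9–137 FPKM in 2D and 62.9–115 FPKM in 3D culture (adjusted p = 0.362). The 4 mesothelial markers summed to 0.543, 511, 1358 and 0.352 FPKM in 2D culture and 1.57, 33.7, 5.74 and 6.23 FPKM in 3D culture, so the 2D libraries of mice 3 and 4 stood apart from those of mice 2 and 5. Adipocyte markers summed to 6.80–39.3 FPKM in 2D and 0.0435–0.0995 FPKM in 3D culture (1 of 3 tested lower, Adipoq and Lep at 0 throughout), macrophage and leukocyte markers to 2.07–21.3 FPKM in 2D and 6.25–42.3 FPKM in 3D culture (1 of 5 higher, Cd68), endothelial markers to 0.412–6.71 FPKM in 2D and 0.0480–0.202 FPKM in 3D culture and epididymal markers to 0–0.117 FPKM in 2D and 0–3.59 FPKM in 3D culture, with no call among either. In such bulk RNA, fewer cells of a type and less RNA per cell cannot be told apart, and the part of these cell types in the results was not tested.

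The defense genes changed in both directions, and the direction differed between families and among the members of a family. In 3D-cultured ADSCs, the genes for NRF2, for glutathione synthesis and reduction, and for several abundant glutathione transferases were higher. Most glutathione peroxidases, heme oxygenase 1, extracellular superoxide dismutase and Cyp1b1 were lower, and the peroxiredoxins and thioredoxin did not pass the test. In all, 14 of the 44 members (31.8%) were higher and 11 (25.0%) lower, and 19 were not called. Over all genes tested, 21.2% were higher and 20.3% lower. The 4 libraries of a culture lay above all 4 of the other for 13 members and below them for 11, where 21.6% and 20.9% of all genes did so. A called log2 difference of at least 1 was found for 11 members that were higher and 10 that were lower, where 10.1% and 10.4% of all genes had one. The median log2 difference of the members was 0.28 (all genes, 0.00), and the median of its absolute size was 1.15 (all genes, 0.38). These shares and medians are not matched for level, since 39 of the 44 members averaged 1 FPKM or more. So did 12583 of all 18862 genes after quantile normalization. In a fit of only genes averaging 1 FPKM or more, 3542 of all genes were higher and 3461 lower, beside 13 and 11 members.

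Mice 4 and 5 gave both cultures. With the mouse as a replicate block, a fit that rests on these 2 pairs with 1 residual degree of freedom, 0 of the 44 members and 0 of all genes passed the threshold in limma. The smallest adjusted p of a member was then 0.111, and 21 members, 20 of them among the 25 called, had an unadjusted p below 0.05. So did 5216 of all 18862 genes tested. The block uses the same libraries as the calls and is no separate test of them. Nothing in the labels says how cultures were started beyond the mouse, so the p-values measure the spread between these libraries.

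**Figure D1:**
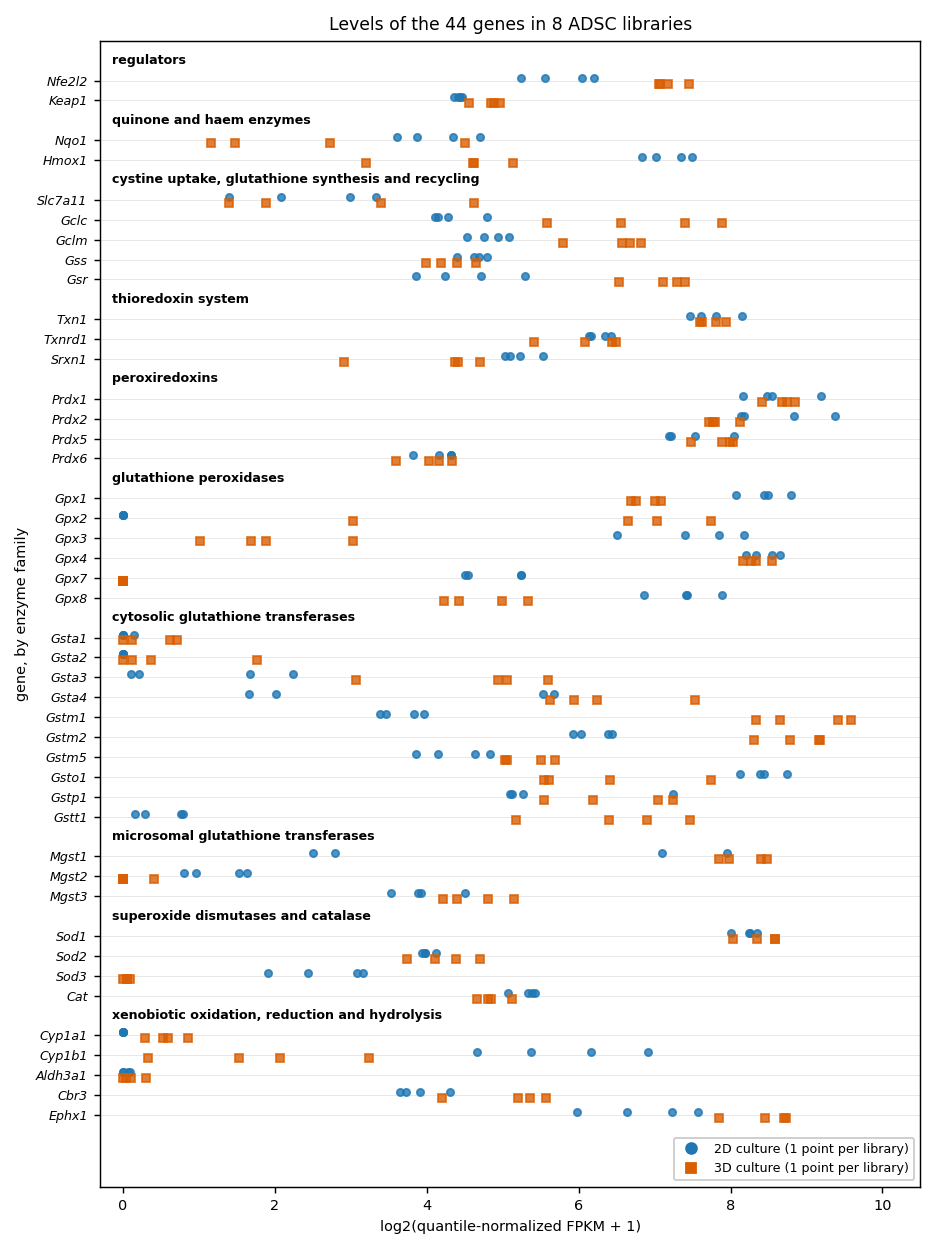
Levels of the 44 genes as log2(quantile-normalized FPKM + 1) on the x axis, with 1 circle per 2D library and 1 square per 3D library, grouped by family. Gpx7 and Sod3 sit at or near 0 in every 3D library and Gpx2 at 0 in every 2D library, while Txn1, Prdx1, Gpx4 and Sod1 are high in both cultures and overlap.

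**Figure D2:**
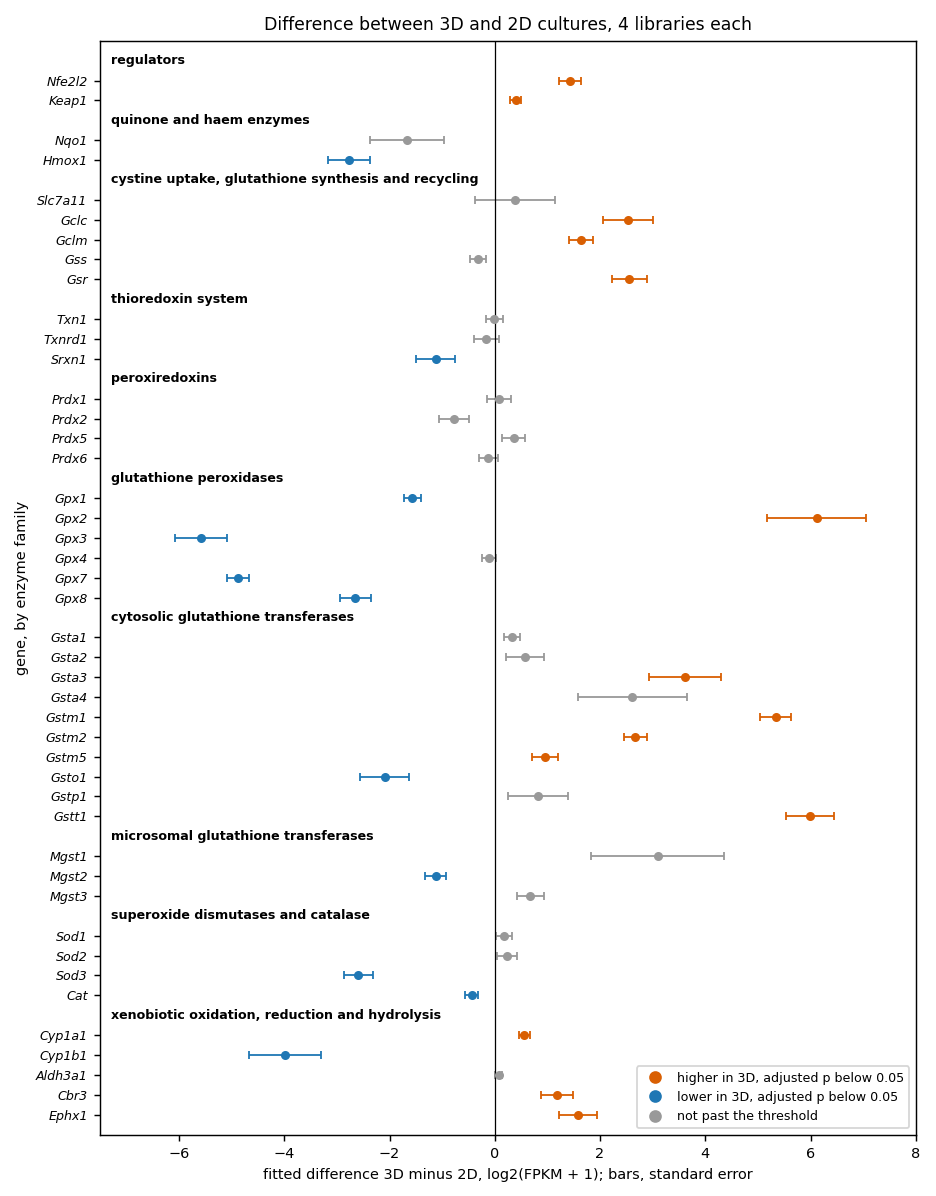
Fitted log2 differences between 3D and 2D culture on the x axis, with standard errors as bars and the call as colour. Of the 44 genes, 14 are called higher and 11 lower, and the glutathione peroxidases span the range from −5.58 (Gpx3) to 6.11 (Gpx2).

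Both regulators were higher in 3D-cultured ADSCs. Nfe2l2 was at 45.9, 64.8, 72.5 and 36.9 FPKM in 2D culture and 133, 132, 174 and 143 FPKM in 3D culture. The 3D libraries were all above the 2D range, and the mean was 2.65-fold higher (log2 difference 1.43 ± 0.22, adjusted p = 0.00143). On the values as deposited, the log2 difference of Nfe2l2 was 0.94 (adjusted p = 0.00652). Within mouse 4 it was 0.86 and within mouse 5 it was 2.21, and the unadjusted p in the limma replicate block was 0.079. Keap1, whose product holds NRF2 in the cytoplasm and hands it to degradation, was at 19.5, 21.0, 20.7 and 20.3 FPKM in 2D culture and 22.5, 28.6, 27.8 and 30.1 FPKM in 3D culture. Its change was small against that of Nfe2l2, with libraries that did not overlap (log2 difference 0.39 ± 0.10, adjusted p = 0.0139). On the values as deposited, without quantile normalization, Keap1 missed the threshold (adjusted p = 0.0659).

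Among 9 partners, repressors and relatives of NRF2, 1 was higher, 2 were lower and 6 were not called, with a median log2 difference of −0.05. The small MAF genes, whose products pair with NRF2 or with its competitor BACH1 on DNA, moved in different directions. Mafg was at 17.1–24.9 FPKM in 2D and 34.2–46.4 FPKM in 3D culture (log2 difference 0.83 ± 0.14, adjusted p = 0.00242). Maff was at 24.5–39.5 FPKM in 2D and 5.62–15.0 FPKM in 3D culture (log2 difference −1.62 ± 0.30, adjusted p = 0.00386). Mafk was at 18.1–28.1 FPKM in 2D and 7.98–16.4 FPKM in 3D culture (log2 difference −0.80 ± 0.22, adjusted p = 0.0232) and lost the call under some alternatives (adjusted p up to 0.124, and 0.301 in the replicate block). Bach1, Cul3, Rbx1, Sqstm1, Nfe2l1 and Nfe2l3 did not pass the test.

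The textbook NRF2 targets Hmox1 and Nqo1 did not follow Nfe2l2. Hmox1 encodes heme oxygenase 1, which opens the heme ring to biliverdin, carbon monoxide and iron. It was at 161, 114, 178 and 128 FPKM in 2D culture and 8.22, 34.2, 23.7 and 23.5 FPKM in 3D culture. All 3D libraries lay below all 2D libraries, and the mean was 6.49-fold lower (log2 difference −2.77 ± 0.39, adjusted p = 0.00103). Nqo1, the quinone reductase, was at 25.1, 11.2, 13.7 and 19.3 FPKM in 2D culture and 1.23, 1.77, 5.58 and 21.7 FPKM in 3D culture. The 3D libraries of mice 1, 4 and 5 lay below every 2D library and that of mouse 7 within the 2D range, and the difference did not pass the test (log2 difference −1.67 ± 0.71, adjusted p = 0.0985). Without the 3D library of mouse 7, it did (adjusted p = 0.00676).

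The glutathione synthesis and recycling genes summed to 99.9 ± 11.2 FPKM in 2D and 393 ± 147 FPKM in 3D culture (SD, n = 4 each), with 3 of 5 genes higher and 2 not called. Gclc and Gclm encode the catalytic and the modifier subunit of glutamate-cysteine ligase, the rate-limiting enzyme. Gclc was at 16.7, 26.7, 18.5 and 16.2 FPKM in 2D culture and 46.8, 93.5, 169 and 236 FPKM in 3D culture. Gclm was at 29.6, 22.2, 33.0 and 26.0 FPKM in 2D culture and 54.5, 93.8, 101 and 112 FPKM in 3D culture. Both subunits were higher in every 3D library than in any 2D library, with log2 difference 2.53 ± 0.47, adjusted p = 0.00388 for Gclc and log2 difference 1.64 ± 0.23, adjusted p = 0.00108 for Gclm. Gsr, the reductase that regenerates glutathione, was at 13.5, 25.2, 38.4 and 17.9 FPKM in 2D culture and 91.5, 137, 167 and 156 FPKM in 3D culture. Its 3D libraries also lay above all 2D libraries (log2 difference 2.56 ± 0.33, adjusted p = 0.000624).

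The other 2 genes of this group behaved differently. Gss, which adds glycine in the second step of synthesis, was at 20.0–26.6 FPKM in 2D and 14.8–24.1 FPKM in 3D culture, and the libraries overlapped (log2 difference −0.32 ± 0.16, adjusted p = 0.144). It passed the threshold, as lower, on the values as deposited and without the 3D library of mouse 7. Slc7a11, the cystine importer and another known NRF2 target, was at 9.05, 3.22, 1.63 and 6.92 FPKM in 2D culture and 1.63, 2.69, 23.6 and 9.53 FPKM in 3D culture. It varied widely within both cultures, and its difference of 0.38 did not pass the test (adjusted p = 0.712).

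Genes for glutathione breakdown, a list of 9, were higher in 2 cases, lower in 2 and not called in 5, with a median log2 difference of −0.27. Ggt7, a member of the gamma-glutamyltransferase family, was at 1.46–3.85 FPKM in 2D and 0.0896–0.251 FPKM in 3D culture (log2 difference −1.51 ± 0.21, adjusted p = 0.000858). Lap3, a leucine aminopeptidase that also splits cysteinylglycine, was at 38.3–58.1 FPKM in 2D and 17.8–20.1 FPKM in 3D culture (log2 difference −1.22 ± 0.13, adjusted p = 0.0003). Ggt6, another member of that family, was listed at 0 in every 2D library and at 0.710–1.71 FPKM in 3D culture (adjusted p = 0.000655).

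The glutathione peroxidases spanned a wide range of differences in both directions. Their summed level was 1098 ± 72.0 FPKM in 2D and 583 ± 133 FPKM in 3D culture (SD, n = 4 each), and 4 of the 6 genes were lower, 1 was higher and 1 was not called. Gpx2, known from the epithelium of the gut, was the exception on the higher side, at 0 FPKM in 2D culture and 99.6, 130.3, 7.12 and 214 FPKM in 3D culture. It was listed at 0 in all 2D libraries, so no fold is given. The 3D library of mouse 5 was far below the other 3, and the fitted log2 difference, which depends on the 1 FPKM added, was 6.11 ± 0.94 (adjusted p = 0.00153).

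Gpx3 encodes the secreted plasma peroxidase. It was at 168, 89.6, 229 and 287 FPKM in 2D culture and 2.69, 1.02, 2.20 and 7.16 FPKM in 3D culture. All 3D libraries lay far below the 2D libraries (log2 difference −5.58 ± 0.49, adjusted p = 9.71e-05). Gpx7 and Gpx8 encode peroxidases of the endoplasmic reticulum that act with protein disulfide isomerases. Gpx7 was at 36.9, 22.4, 21.7 and 36.9 FPKM in 2D culture and 0 FPKM in 3D culture. It was listed at 0 in every 3D library, where 3 fragments would give at most 0.627 FPKM (log2 difference −4.88 ± 0.21, adjusted p = 2.79e-06). Gpx8 was at 169.9, 115, 171 and 236 FPKM in 2D culture and 39.4, 20.4, 17.7 and 30.6 FPKM in 3D culture. The groups were apart, with a mean that was 6.39-fold lower (log2 difference −2.66 ± 0.30, adjusted p = 0.000316).

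Gpx1, the cytosolic peroxidase that removes hydrogen peroxide, was at 359, 445, 269 and 347 FPKM in 2D culture and 127, 102, 107 and 135 FPKM in 3D culture. It was 3.01-fold lower in 3D culture, again without overlap (log2 difference −1.57 ± 0.17, adjusted p = 0.000247). Gpx4, which reduces lipid hydroperoxides in membranes, was at 295–401 FPKM in 2D and 287–373 FPKM in 3D culture and did not pass the test (log2 difference −0.10 ± 0.13, adjusted p = 0.55). It did pass, as lower, on the values as deposited. As shares of the summed FPKM of the family, Gpx1 made up 32.5% ± 7.71 in 2D and 20.6% ± 2.87 in 3D culture, Gpx3 17.4% ± 6.71 in 2D and 0.521% ± 0.313 in 3D culture and Gpx8 15.6% ± 3.52 in 2D and 4.62% ± 1.37 in 3D culture (mean ± SD, n = 4). Gpx4 made up 31.9% ± 5.59 in 2D and 56.6% ± 9.02 in 3D culture, and Gpx2 17.7% ± 11.7 in 3D culture, where that of mouse 5 held 1.61% and the others 16.8–28.1%. By these shares, Gpx1 led the family in 3 of the 2D libraries and Gpx4 in that of mouse 4, and Gpx4 led it in each 3D library.

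**Figure D3:**
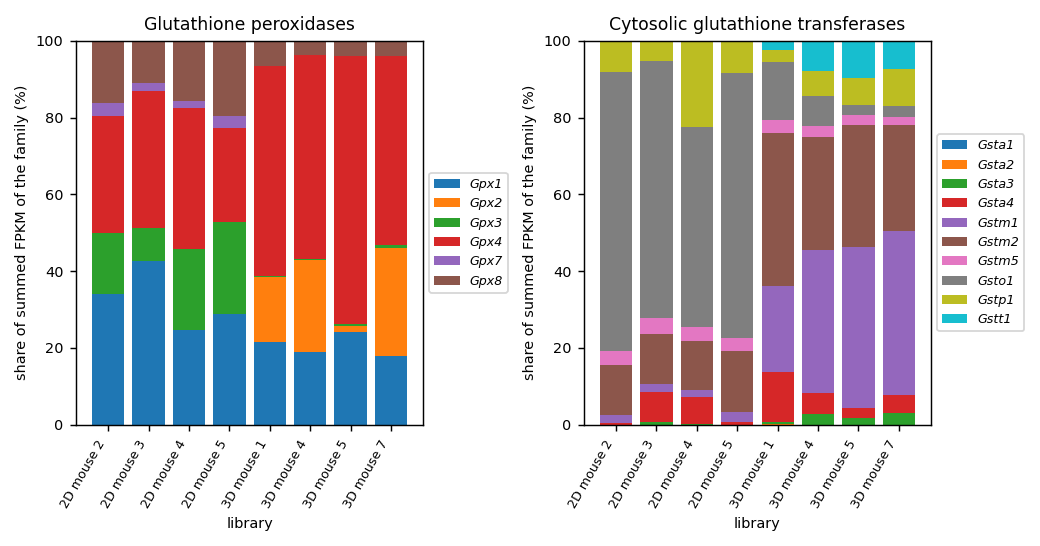
Shares of the summed FPKM of the glutathione peroxidases (left) and of the cytosolic glutathione transferases (right), in percent on the y axis, for each of the 8 libraries. Gpx3, Gpx7 and Gpx8 shrink and Gpx2 appears in the 3D libraries, and Gsto1, between 51.9% and 72.7% of the transferases in 2D culture, gives way to Gstm1 and Gstm2.

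The cytosolic glutathione transferases summed to 543 ± 132 FPKM in 2D and 1482 ± 314 FPKM in 3D culture (SD, n = 4 each), with 5 of 10 genes higher, 1 lower and 4 not called. The mu class genes Gstm1, Gstm2 and Gstm5 lie in a cluster on chromosome 3 (GENCODE, GRCm38, chr3:108012255-108017973, chr3:107981702-107986453 and chr3:107895821-107898686). Gstm1 was at 9.45, 14.6, 13.3 and 10.0 FPKM in 2D culture and 321, 401, 767 and 682 FPKM in 3D culture. Gstm2 was at 59.5, 82.3, 85.9 and 64.1 FPKM in 2D culture and 572, 317, 579.8 and 439 FPKM in 3D culture. Both were higher in every 3D library, with means that rose 45.9-fold for Gstm1 (log2 difference 5.33 ± 0.30, adjusted p = 9.60e-06) and 6.54-fold for Gstm2 (log2 difference 2.67 ± 0.22, adjusted p = 7.06e-05). Gstm5 was at 16.7, 27.5, 23.9 and 13.5 FPKM in 2D culture and 50.4, 31.7, 44.2 and 32.4 FPKM in 3D culture, also without overlap (log2 difference 0.95 ± 0.25, adjusted p = 0.0178).

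Gstt1, of the theta class, which acts on small halogenated compounds, was at 0.111, 0.693, 0.732 and 0.221 FPKM in 2D culture and 35.0, 83.7, 176 and 118 FPKM in 3D culture. The 2D libraries were close to the level of 3 fragments, 0.443 FPKM at the shortest coding transcript, while the 3D libraries were far above it (log2 difference 5.99 ± 0.46, adjusted p = 5.12e-05). Gsta3, of the alpha class, was at 0.0791, 3.72, 2.18 and 0.157 FPKM in 2D culture and 7.39, 29.6, 32.3 and 47.2 FPKM in 3D culture. It was above all 2D libraries in each 3D library (log2 difference 3.61 ± 0.68, adjusted p = 0.00415). Gsto1, of the omega class, which has thioltransferase activity, went the other way, at 334, 427, 347 and 278 FPKM in 2D culture and 214, 84.3, 48.0 and 45.6 FPKM in 3D culture. Its difference was −2.10 ± 0.47 (adjusted p = 0.00896), and it missed the threshold when the 2D libraries of mice 3 and 4 were left out together (log2 difference −1.92, adjusted p = 0.0641).

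With this, the leading transferase changed. Gsto1 made up 65.1% ± 9.11 in 2D and 7.06% ± 5.77 in 3D culture of the summed FPKM of these 10 genes, Gstm1 2.20% ± 0.231 in 2D and 36.1% ± 9.47 in 3D culture and Gstm2 13.6% ± 1.51 in 2D and 32.2% ± 5.45 in 3D culture (mean ± SD, n = 4). Gstt1 made up 0.0742% ± 0.0419 in 2D and 6.83% ± 3.08 in 3D culture. Gsta1 reached at most 0.631 FPKM and Gsta2 at most 2.40 FPKM (3D culture, mouse 1), and neither was called (adjusted p = 0.145 and adjusted p = 0.252), although Gsta1 passed without the 3D library of mouse 7. Gstp1, of the pi class, was at 37.5, 33.3, 150.3 and 33.9 FPKM in 2D culture and 45.5, 72.0, 131 and 150.3 FPKM in 3D culture. Its 2D library of mouse 4 lay among the 3D libraries, and the difference was not called (log2 difference 0.82 ± 0.58, adjusted p = 0.299) unless this library was left out.

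Some of these genes share sequence with close copies, so that the counting could split their fragments. Of all 50-base stretches of their transcripts, 89.7% were shared with another gene for Gsta1, 64.2% for Gsta2, 62.3% for Gstp1 and 61.7% for Gpx4. The share was 23.1% for Gstm1, 23.1% for Sod1, 18.9% for Gpx2, 10.9% for Prdx1, 9.36% for Gstm2 and 8.96% for Prdx2. In the remaining members it was at most 3.55% (Cyp1a1). The levels of Gsta1, Gsta2, Gstp1 and Gpx4 are uncertain for this reason.

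Of 14 further glutathione transferases, 13 could be tested, and 4 were higher, 1 was lower and 8 were not called (median log2 difference 0.28). Gstt2 was at 0.0807–0.553 FPKM in 2D and 15.6–34.7 FPKM in 3D culture (log2 difference 4.11 ± 0.26, adjusted p = 1.82e-05). Gstt3 was at 3.07–4.75 FPKM in 2D and 40.9–52.6 FPKM in 3D culture (log2 difference 3.32 ± 0.14, adjusted p = 2.39e-06). Both belong to the theta class, as does Gstt1. Of the other mu class genes, Gstm7 was higher, at 0.248–0.808 FPKM in 2D and 1.39–2.34 FPKM in 3D culture (adjusted p = 0.00485). Gstm3, Gstm4 and Gstm6 were not called. Gsto2, of the omega class like Gsto1, was at 2.82–4.81 FPKM in 2D and 0.381–1.15 FPKM in 3D culture (log2 difference −1.61 ± 0.20, adjusted p = 0.000595).

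The microsomal transferases are membrane proteins that detoxify lipids or make leukotrienes. Mgst1 was at 5.94, 136, 246 and 4.68 FPKM in 2D culture and 251, 230.3, 337 and 357 FPKM in 3D culture. Gsta4, a cytosolic transferase of the alpha class that acts on the lipid peroxidation product 4-hydroxynonenal, was at 2.16, 50.3, 45.4 and 3.05 FPKM in 2D culture and 185, 60.5, 48.4 and 74.4 FPKM in 3D culture. In both genes the 2D libraries of mice 3 and 4 were high and those of mice 2 and 5 low, and neither difference was called (log2 difference 3.09 ± 1.26, adjusted p = 0.087 for Mgst1, log2 difference 2.61 ± 1.03, adjusted p = 0.0795 for Gsta4). These are the 2D libraries in which the mesothelial markers summed to 511 and 1358 FPKM and the epithelial markers to 176 and 694 FPKM, against 31.8 FPKM or less of either in those of mice 2 and 5. Without these 2 libraries, Mgst1 (log2 difference 5.46, adjusted p = 2.77e-05) and Gsta4 (4.43, adjusted p = 0.00194) were called higher in 3D culture. This removal was chosen after seeing the data. It takes out the high 2D values of both genes, so the 2 calls follow from that choice and are no separate test. In all, 19 of the 44 members (43.2%) had their 2 highest 2D values in mice 3 and 4, as did 23.8% of all genes tested. Of these 19, 13 were called, and 11 of the 13 were also called without these libraries, among them Nfe2l2, Gclc, Gsr, Gsta3, Gstm1, Gstt1 and Ephx1. Gsto1 and Cat, both lower in 3D culture, were not. How many of all genes with this pattern were called was not counted, so these counts of calls have no background. The 19 members were picked by their high values in these libraries. Taking those values out lowers the 2D mean, in favour of a call of higher and against a call of lower. The kept calls are therefore no separate test of these differences.

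Mgst3 was at 10.6–21.7 FPKM in 2D and 17.5–34.4 FPKM in 3D culture, with overlap (log2 difference 0.68 ± 0.26, adjusted p = 0.0753), and was called higher without the 2D library of mouse 4 alone. Mgst2 was low throughout, at 0.950, 2.09, 0.743 and 1.88 FPKM in 2D culture and 0, 0, 0.327 and 0 FPKM in 3D culture. The 3D libraries were listed at 0 or under the level of 3 fragments, 0.431 FPKM, and the gene was called lower (log2 difference −1.13 ± 0.21, adjusted p = 0.00363). Without the 2D libraries of mice 3 and 4, 17 members were higher and 8 lower, and Srxn1, Gsto1 and Cat were no longer called. Over all genes, 3560 were then higher and 4206 lower.

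**Figure D4:**
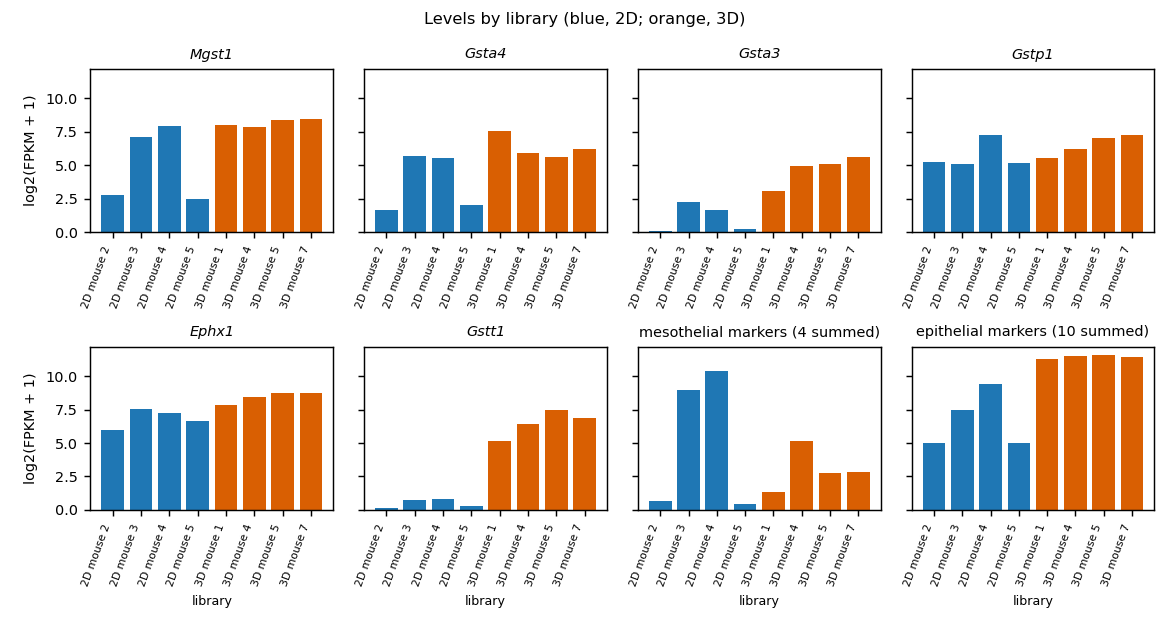
Levels of Mgst1, Gsta4, Gsta3, Gstp1, Ephx1 and Gstt1 and the summed levels of 4 mesothelial and 10 epithelial markers, as log2(FPKM + 1), 1 bar per library. Mgst1, Gsta4 and the mesothelial markers are high in the 2D libraries of mice 3 and 4 and low in those of mice 2 and 5, and Gstp1 is high in that of mouse 4.

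The thioredoxin system and the peroxiredoxins remove peroxides by a route largely parallel to glutathione. Txn1, Prdx1, Prdx2 and Prdx5 were abundant in both cultures, while Prdx6 was at 13.1–19.0 FPKM in 2D and 11.1–19.1 FPKM in 3D culture. Txn1, thioredoxin, was at 175–283 FPKM in 2D and 193–244 FPKM in 3D culture, and its reductase Txnrd1 at 69.3–85.3 FPKM in 2D and 41.5–89.1 FPKM in 3D culture. Neither was called (log2 difference −0.01, adjusted p = 0.954 for Txn1 and −0.16, adjusted p = 0.601 for Txnrd1). On the values as deposited, both were lower in 3D culture and just missed the threshold in limma. The log2 difference was then −0.59 (adjusted p = 0.0559) for Txn1 and −0.62 (adjusted p = 0.054) for Txnrd1. Srxn1, sulfiredoxin, which repairs overoxidized peroxiredoxins, was at 36.5, 31.8, 45.2 and 33.3 FPKM in 2D culture and 6.53, 19.7, 25.0 and 20.3 FPKM in 3D culture. It was lower in every 3D library and just passed the threshold (log2 difference −1.12 ± 0.37, adjusted p = 0.0435), which it missed without the intensity trend, without any 1 of the 2D libraries and without the 3D library of mouse 4 or 7 (adjusted p between 0.0515 and 0.0974), without the 2D libraries of mice 3 and 4 (0.161) and in the replicate block (0.256). The peroxiredoxins summed to 1024 ± 357 FPKM in 2D and 889 ± 62.5 FPKM in 3D culture (SD, n = 4 each), and 0 of 4 were called by limma, each also with an unadjusted p above 0.05 except Prdx2. Prdx2 was at 282, 455, 662 and 289.6 FPKM in 2D culture and 279, 209, 218 and 221 FPKM in 3D culture. Its 3D libraries lay below its 2D libraries, narrowly, and the adjusted p was just above the threshold (log2 difference −0.78 ± 0.28, adjusted p = 0.0571). It passed on the values as deposited, with the pseudocount of 0.1, over genes averaging 1 FPKM or more, and without the 2D library of mouse 2 or of mouse 5.

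Among 18 other thiol and peroxide enzymes, 17 could be tested, of which 5 were higher, 5 lower and 7 not called (median log2 difference −0.18). Prdx4, the peroxiredoxin of the endoplasmic reticulum, was at 66.1–126 FPKM in 2D and 11.8–42.0 FPKM in 3D culture (log2 difference −2.18 ± 0.41, adjusted p = 0.00411). Glrx, the cytosolic glutaredoxin that removes glutathione from proteins, was at 8.18–14.8 FPKM in 2D and 23.4–73.9 FPKM in 3D culture (log2 difference 2.13 ± 0.37, adjusted p = 0.00274). Txnrd3, a thioredoxin reductase with a glutaredoxin domain, was at 3.68–5.38 FPKM in 2D and 17.0–30.2 FPKM in 3D culture (log2 difference 2.09 ± 0.19, adjusted p = 0.00011). Prdx4 thus moved down with Gpx7 and Gpx8, the other peroxidases of the endoplasmic reticulum measured here.

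Of the superoxide dismutases, the intracellular ones were not called and the secreted one was lower. Sod1, in the cytosol, was at 257–325 FPKM in 2D and 262–382 FPKM in 3D culture (adjusted p = 0.385), and Sod2, in mitochondria, at 14.3–16.4 FPKM in 2D and 12.3–25.0 FPKM in 3D culture (adjusted p = 0.378). Sod3, which is secreted and binds to the extracellular matrix, was at 2.75, 4.43, 7.91 and 7.49 FPKM in 2D culture and 0.0689, 0, 0.0380 and 0.0353 FPKM in 3D culture. In 3D culture it was near the level of 3 fragments, 0.0555 FPKM (log2 difference −2.60 ± 0.28, adjusted p = 0.000256). Catalase, Cat, was at 39.3, 40.7, 41.9 and 32.7 FPKM in 2D culture and 27.7, 24.4, 33.8 and 27.0 FPKM in 3D culture. The difference was small, the libraries overlapped, and the call (log2 difference −0.44 ± 0.12, adjusted p = 0.0196) was lost without the 3D library of mouse 7 (adjusted p = 0.0506).

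The xenobiotic enzymes outside the transferases were higher in 3 of 5 cases, with 1 lower and 1 not called. Cyp1a1 and Cyp1b1 are cytochrome P450 genes known as targets of the aryl hydrocarbon receptor. Cyp1b1 was at 24.2, 119, 70.7 and 40.5 FPKM in 2D culture and 0.254, 1.88, 3.19 and 8.46 FPKM in 3D culture. Its fall was large and without overlap (log2 difference −3.99 ± 0.69, adjusted p = 0.0027). Cyp1a1 was at 0 FPKM in 2D culture and 0.508, 0.221, 0.435 and 0.801 FPKM in 3D culture. No 2D library had a value above 0, and the 3D libraries were low but above the level of 3 fragments of 0.0792 FPKM (log2 difference 0.56 ± 0.11, adjusted p = 0.0039). The 2 genes thus moved in opposite directions.

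Ephx1, microsomal epoxide hydrolase, was at 62.3, 189, 149 and 98.1 FPKM in 2D culture and 230.3, 351, 422 and 416 FPKM in 3D culture. It was higher in every 3D library (log2 difference 1.58 ± 0.36, adjusted p = 0.00967). Cbr3, a carbonyl reductase, was at 14.0, 12.3, 18.8 and 11.5 FPKM in 2D culture and 17.3, 35.7, 39.9 and 46.4 FPKM in 3D culture. Its 3D library of mouse 1 lay within the 2D range, and the others above it (log2 difference 1.18 ± 0.30, adjusted p = 0.0162). Aldh3a1, an aldehyde dehydrogenase of the cornea, stayed at or under the level of 3 fragments in both cultures.

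Of 18 further genes of the aryl hydrocarbon receptor and of xenobiotic metabolism, 6 were higher, 2 lower and 10 not called (median log2 difference 0.17). Ahr, the receptor itself, was at 1.62, 10.3, 4.13 and 1.27 FPKM in 2D culture and 12.2, 25.6, 31.8 and 22.5 FPKM in 3D culture (log2 difference 2.41 ± 0.54, adjusted p = 0.00869). Ugt1a6a, a glucuronosyltransferase, was at 2.43–14.7 FPKM in 2D and 27.7–68.6 FPKM in 3D culture (log2 difference 2.46 ± 0.59, adjusted p = 0.0119). Ephx2, soluble epoxide hydrolase, was at 4.53–8.33 FPKM in 2D and 0–0.140 FPKM in 3D culture (log2 difference −2.77 ± 0.18, adjusted p = 1.98e-05). The 2 epoxide hydrolases Ephx1 and Ephx2 thus moved in opposite directions.

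Of 20 other known NRF2 targets, 7 were higher, 7 lower and 6 not called (median log2 difference 0.21). The higher ones were G6pdx, Tkt and Taldo1 of the pentose phosphate pathway, Me1, which also yields NADPH, Cbr1, and the exporters Abcc3 and Abcc4. The lower ones were Blvra, Blvrb, Esd, Pir, Akr1b8, Ugdh and Abcc1, of which Blvra and Blvrb encode the biliverdin reductases downstream of heme oxygenase. The calls of Me1, Blvra, Ugdh and Abcc1 were lost under some alternatives. Abcc3 was at 0.151–1.05 FPKM in 2D and 14.7–80.7 FPKM in 3D culture (log2 difference 4.29 ± 0.48, adjusted p = 0.00031). Abcc4 was at 4.63–9.46 FPKM in 2D and 54.3–134 FPKM in 3D culture (log2 difference 3.51 ± 0.32, adjusted p = 0.000106). Akr1b8, an aldo-keto reductase, was at 43.4–55.8 FPKM in 2D and 0.510–11.0 FPKM in 3D culture (log2 difference −3.51 ± 0.66, adjusted p = 0.00416). Over all 6 lists of other pathway genes, 25 of 86 tested were higher (29.1%) and 19 lower (22.1%). Of all genes, 21.2% and 20.3% were, shares that are not matched for level.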

How the data were processed

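Total RNA of 8 ADSC cultures was depleted of ribosomal RNA and sequenced as directional paired-end libraries. The authors trimmed the reads, mapped them with TopHat to mm10 (submitters' processing notes) and summarized genes as FPKM with Cufflinks. The deposited FPKM values hold no counts. The methods name quantile normalization of FPKM values, but the deposited libraries did not share 1 distribution. Their maxima ranged from 93611 to 419827 FPKM, while upper quartiles were close, at 10.7 to 11.4 FPKM. Of 24346 genes, 5484 at 0 in every library were left out. The other 18862 were quantile normalized, converted to log2(FPKM + 1) and fitted with limma 3.58.1 in R 4.3.3 (3D minus 2D, intensity trend, no covariates). The model was tested on simulated data.

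For the depth, the spacing of low values was used, over 875 single-transcript genes of 3000 nt or more. Per library, 70.2–81.2% of these values lay within 0.15 of a whole multiple. The level of 3 fragments was taken at the shortest coding transcript and covers counting error only. Gene models were from GENCODE M21, matched by symbol for 23310 genes (95.7%), and promoters from RefSeq GRCm38.p6.

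The mice pair the cultures for mice 4 and 5, which are the same animals. Over 12583 genes averaging 1 FPKM or more, the deviations of paired libraries correlated at −0.05 (mouse 4) and −0.11 (mouse 5).

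The members and lists were chosen with earlier results of these data known. All 44 members were accounted for. Values per library were given for Nfe2l2, Keap1 and members with an adjusted p below 0.05, a log2 difference of at least 1 in size and no overlap, and for others that were near the threshold or varied between alternatives. Of each list of other pathway genes, up to 3 called genes with the largest differences were described, and Ahr was given per library. The complete calls of the other NRF2 targets and of the other mu class genes were named after their values were seen. Promoters were printed for the called members with the largest differences that held the motif. Alternatives were the values as deposited, no trend, only genes averaging 1 FPKM or more, a smaller pseudocount (0.1), a replicate block by mouse, the mouse as random effect, and each library left out. The exchange of mice 4 and 5 and the removal of the 2D libraries of mice 3 and 4 together were chosen after seeing the data.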

Additional observations from a re-analysis of the deposited data

Results flagged for a closer look

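In 75 groups of 4 libraries averaging 1 FPKM or more, the highest and the lowest library of each member gene were compared with the nearest of the others by Dixon's criterion, which chance alone meets in about 1 of 20 groups. It was met in 2 groups. In 2D culture, mouse 4 had 150.3 FPKM of Gstp1 where the other 3 mice had 33.3–37.5 FPKM. In 3D culture, mouse 1 had 279 FPKM of Prdx2 where the other 3 mice had 209–221 FPKM.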

How the results depend on the processing

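With the mouse as a replicate block, 0 members, 0 genes overall and 0 other pathway genes were called in either direction, against 14 and 11, 4000 and 3823, and 25 and 19 without the block. An unadjusted p below 0.05 was found in the block for 21 members, 5216 genes and 32 other pathway genes. When the 3D libraries of mice 4 and 5 exchanged their numbers, the counts were also 0 in each case. Under the other alternatives, each count stayed within 1.5 times its main value. For the members these were 13 higher and 14 lower as deposited, 14 and 10 without the trend, 13 and 11 of 39 averaging 1 FPKM or more, 14 and 12 with the pseudocount of 0.1, 14 and 11 with the mouse as a random effect, and 17 and 8 without the 2D libraries of mice 3 and 4. Leaving out each library gave 14–19 higher and 10–11 lower members. Without the 2D library of mouse 4, 19 were higher, where Prdx5, Gsta4, Gstp1, Mgst1 and Mgst3 passed and Srxn1 did not. Over all genes, leaving out each library gave 3393–4051 higher and 3204–3835 lower, with 3601 higher without the 2D library of mouse 4. As deposited, 4279 of all genes were higher and 4069 lower.

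No called member changed direction. Uncalled members did. As deposited, Prdx1 was at −0.47, Prdx5 at −0.20 and Sod1 at −0.36 (log2 difference). In the block, with or without the exchange, Txn1 was at 0.0099, Txnrd1 at 0.21, Prdx1 at −0.048, Prdx6 at 0.18 and Sod2 at −0.051. Without the 2D libraries of mice 3 and 4, Slc7a11 was at −0.34 and Gpx4 at 0.058. Over the libraries left out, Slc7a11 ranged from −0.22 to 0.87, Txn1 from −0.11 to 0.12, Txnrd1 from −0.30 to 0.071, Prdx1 from −0.077 to 0.28 and Prdx6 from −0.23 to 0.020. The cause was not tested. With 14.5–17.3 M fragments and no counts, differences of genes under about 1 FPKM are limited by depth.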
